A study of Sus scrofa with 6 samples.

Results

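The genes of the microtubule cytoskeleton and of chromosome movement were taken from the Affymetrix Porcine Genome Array by their names alone: tubulins and gamma-tubulin complex proteins (TUBA, TUBB, TUBG), kinesins (KIF), cytoplasmic dynein chains (DYNC) and dynein light chains (DYNL), centromere proteins (CENP), NDC80 and SPC proteins of the kinetochore, and centrosomal proteins (CEP followed by a digit). This gave 36 genes of 6765 with a single annotated symbol, held by 47 of the 23999 probe sets that are not array controls. Each gene is read from 1 probe set, the one with the highest mean log2 signal over the 6 arrays. Most of these arrays are embryo pools, so the choice can favour probe sets that are bright in embryos.

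The study concerns early pig embryos made by nuclear transfer, in which a cultured cell supplies the nucleus of an oocyte, and the protein DJ-1, which senses oxidants. Embryos injected with an antibody against DJ-1 (2 arrays), embryos injected with IgG (2 arrays), embryos with no injection (1 array) and the donor cells (1 array) were compared. All embryos came from slaughterhouse oocytes and from one kind of donor cell, cultured fibroblasts established from an adult Meishan pig, and no label names a genetic change in any group. Embryos were cultured in PZM-3 medium and collected 28 h after transfer, when many had just reached the 2-cell stage, in pools of 23 to 26, so a value is the mean of a pool that can mix stages. The donor cells were grown in DMEM with serum and are 1 culture. Trial 1 held an array of every group, and trial 2 held a second, biologically different, anti-DJ1 pool and IgG pool.

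Microtubules are hollow polymers of alpha- and beta-tubulin that start from gamma-tubulin complexes, often at a centrosome. Kinesins and cytoplasmic dynein walk along them with cargo, and at division they build and focus the spindle, while centromere proteins and the NDC80 complex tie each chromosome to its microtubules. An oocyte discards its centrioles and stores much of the RNA for the first divisions, and the division studied here comes before the main wave of transcription from the embryonic genome in pigs.

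Signals are linear intensities on a scale set by the authors with MAS5, the array maker's summary method, and log2 changes were computed on log2(signal + 4.57). Where 2 signals are given for a group, that of trial 1 comes first. The mean of each array after trimming was 500.1 to 500.2. The highest of 17 Tag controls, probe sets for sequences foreign to the sample, was 21.4 to 47.0 by array and served as the limit of background. The ratio of 3′ to 5′ signal of the EF1A control, which grows as labelling stops short of the 5′ end, was 8.20 to 30.0 in the embryos and 4.23 in the donor cells. For the actin control it was 45.0 to 665 in the embryos and 141 in the donor cells, which lay above both trial 2 pools (45.0 and 68.4). Array pairs within the embryos correlated at r = 0.934 to 0.973 over log2 signals of all probe sets. Oocyte markers (9 genes on the array) summed to 71599 to 113111 in the embryo pools and to 256 in the donor cells. Fibroblast markers (11 genes) summed to 1652 to 2076 in the embryo pools and to 66163 in the donor cells. Among these, FN1 reached 24455 and VIM 31965 in the donor cells, but DCN was at 5.58 and LUM at 1.71 there, within the Tag controls. KRT8, an epithelial keratin on the cumulus list, was at 9907 in the donor cells, and the keratin KRT18, on the same list, was at 2103. KRT8 and KRT18 gave most of the donor cell sum of that list. Cumulus and granulosa markers (11 genes) summed to 1634 to 2243 in the embryos and to 12916 in the donor cells. Of these, INHBA (975 to 1495), FST (323 to 500), INHA (40.3 to 226) and KRT8 (60.9 to 211) passed the Tag controls in all embryo pools. CYP19A1 passed them only in the anti-DJ1 and IgG pools of trial 1, and FSHR, CYP11A1 and AMH lay within them on every array. Epithelial, endothelial and blood markers (8 genes) summed to 8913 to 11292 in the embryos and to 5141 in the donor cells. Neuron markers (3 genes) summed to 199 to 355 in the embryos and to 39.6 in the donor cells, and the 1 cilium marker on the array, TEKT1, lay within the Tag controls on every array. The part of these cell types and of RNA quality in the results was not tested.

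**Figure D1:**
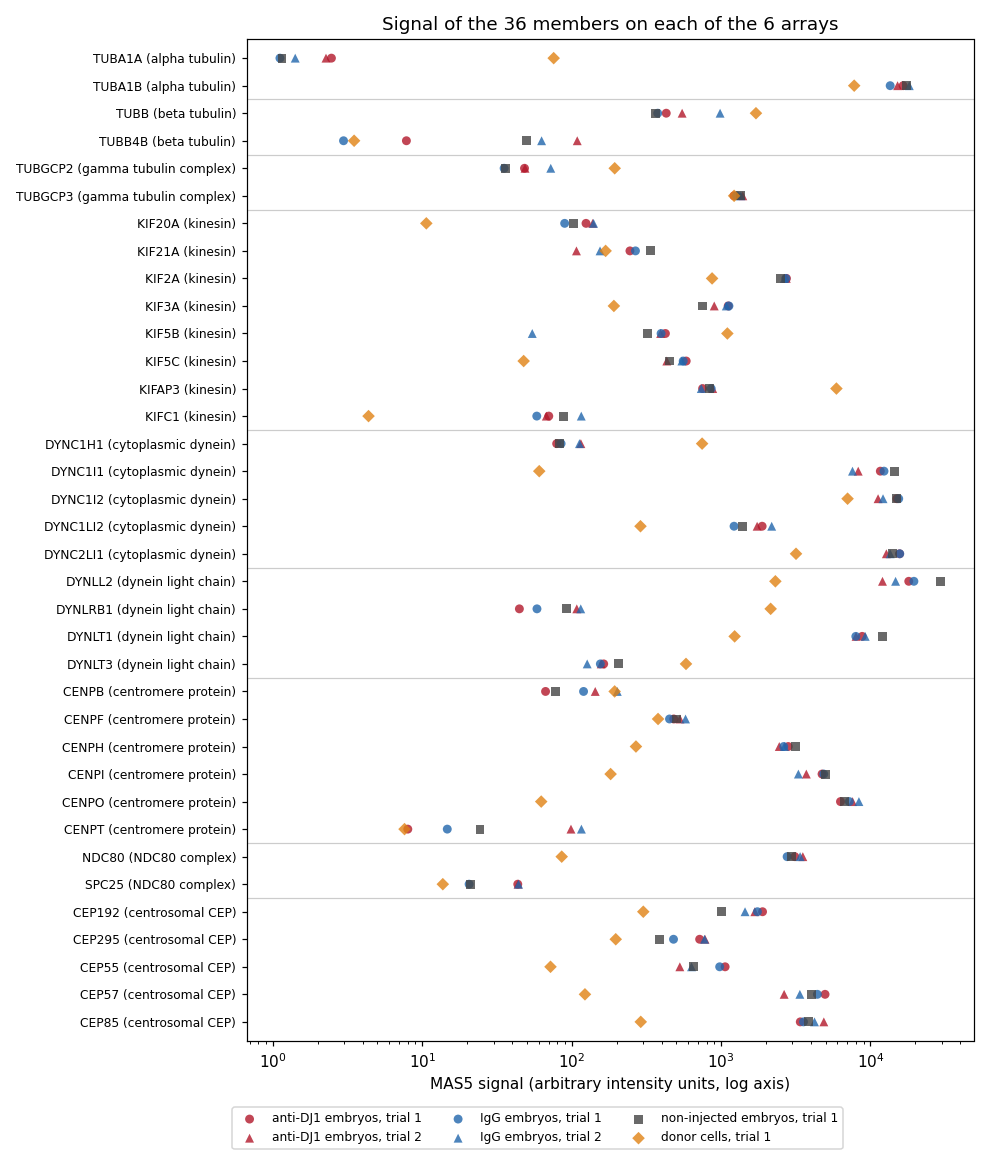
Signals of the 36 genes on each of the 6 arrays, on a log axis, with genes grouped by role down the page. Points are single arrays, anti-DJ1, IgG and non-injected embryo pools and then donor cells; for most genes the donor cell point stands apart from the 5 embryo points, as for DYNC1I1 with 7579 to 14419.7 in embryos and 60.7 in donor cells.

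Transcripts of 31 of the 36 genes lay above the Tag controls in all 5 embryo pools. TUBA1A, an alpha-tubulin, lay within them in every pool, and TUBB4B, CENPT, SPC25 and TUBGCP2 passed them in only some. TUBB4B (a beta-tubulin), CENPT, SPC25 and TUBA1A also had too low a mean to enter the tests, which were run on the upper 60% of probe sets and so on 32 of the 36 genes. Over the 31 genes, the coefficient of variation between the 5 embryo pools had a median of 17.8% and a range of 3.46% to 47.9%, against a median of 23.4% over the 11544 probe sets above the Tag controls in all pools.

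Against the donor cells, the embryos held more transcript of most motors, kinetochore and centrosome genes and less of a smaller group that includes the dynein heavy chain. Of the 32 genes tested, 22 were higher and 8 lower in the embryos, and 2 did not pass the test (limma, adjusted p under 0.05). The background is high, as 72.9% of all probe sets tested were called: 36.4% were called higher and 36.5% lower, and for genes with a single symbol, read from 1 probe set each, 35.3% and 41.5%. The filter uses the mean over arrays that are mostly embryo pools. It can keep genes near background in donor cells and drop genes seen only there, such as TUBA1A. With no filter, 22 of 36 genes were higher and 9 lower, where 5421 of 23999 probe sets were higher and 7293 lower. The median log2 change of the 32 genes was 2.27, against -0.02 over all probe sets tested. Signals of the embryos and the donor cells did not overlap for 22 genes that were higher and 7 that were lower, where 40.9% and 39.4% of all probe sets did so. As each array received 50 ng of total RNA, a change is one in the share of the RNA, and fewer cells of a type and less RNA per cell cannot be told apart.

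The donor cells gave 1 array, of trial 1. With the trial as a term, each log2 change below thus equals the mean of the 3 embryo arrays of trial 1 minus the donor array. The test assumes that the donor array varies like the embryo arrays. The spread given to a gene follows mainly its mean over the 6 arrays, most of them embryo pools. For a gene bright in embryos and dim in donor cells, the SE and p-value therefore do not measure the error of the dim donor signal. DYNC1I1, at 60.7 in donor cells, had an SE of 0.13. The second probe set of TUBGCP3, dim on every array and at 80.6 in donor cells, had an SE of 0.51. With the embryo arrays of trial 2 alone, 31 of the 32 genes kept their sign, and 27 were at least 2-fold apart with the embryos of either trial. Both contrasts use the same donor array, so only the embryo side is repeated. With a scaling that gives every array the same 75th percentile, the median change over all probe sets tested was 0.59, and with quantile normalization it was 0.42. The split of all calls then went to 6706 higher and 3911 lower, and to 6256 and 4221, beside 5248 and 5253 as deposited. Among the 32 genes it was 24 higher and 6 lower under the first, where KIF5B and CENPB lost their calls and TUBGCP3 and CENPF gained one as higher, and 23 and 7 under the second, where CENPB lost its call and CENPF gained one. No change of sign was found among the 32 genes under either.

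**Figure D2:**
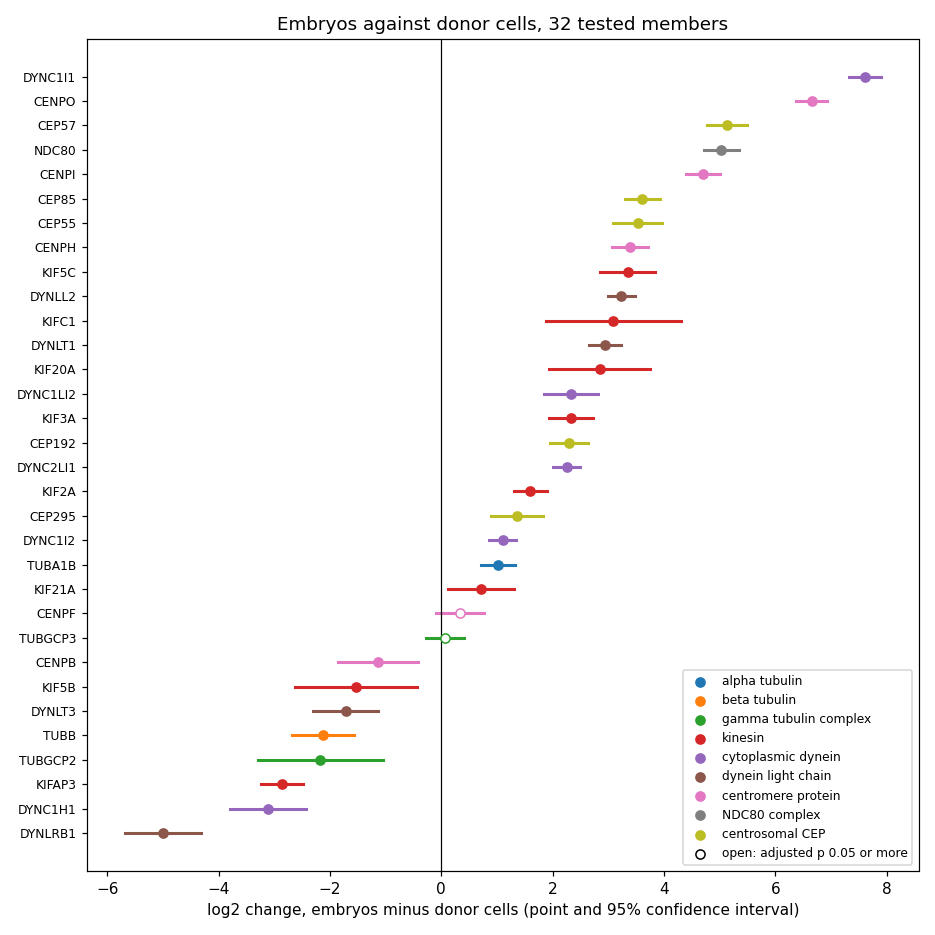
Log2 change of the 32 tested genes in embryos minus donor cells, sorted by size and coloured by role, with 95% confidence intervals from the fit. The values run from 7.61 for DYNC1I1 to -5.00 for DYNLRB1, and the intervals of TUBGCP3 and CENPF span 0.

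The tubulins, the building blocks, went both ways. TUBA1B gave signals of 16531 and 15181 in anti-DJ1 pools, 13543 and 18182 in IgG pools, 17416 in the non-injected pool and 7778 in donor cells. All 5 pools lay above the donor cells, and the log2 change was 1.02 ± 0.14 (SE, adjusted p = 3.51e-05). TUBB gave signals of 429.6 and 549 in anti-DJ1 pools, 377 and 985 in IgG pools, 363 in the non-injected pool and 1712 in donor cells. Every pool lay below the donor cells, with a log2 change of -2.13 ± 0.25 (SE, adjusted p = 7.73e-06), and the IgG pool of trial 2 was the closest to them. TUBA1A was at 1.12 to 2.47 in the embryos and 75.8 in the donor cells, at least 1.97-fold lower in the embryos when their signals are set to the Tag controls (adjusted p = 0.000163 with all probe sets tested). TUBB4B gave signals of 7.83 and 109 in anti-DJ1 pools, 2.97 and 62.9 in IgG pools, 49.7 in the non-injected pool and 3.50 in donor cells, with the donor cells, and the anti-DJ1 and IgG pools of trial 1, within the Tag controls. Tubulin isotypes are near-identical in sequence, so a probe set may read other isotypes, and these assignments are uncertain.

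Of the 2 gamma-tubulin complex proteins, which form the ring from which a microtubule grows, TUBGCP2 gave signals of 48.4 and 48.7 in anti-DJ1 pools, 35.3 and 72.5 in IgG pools, 36.2 in the non-injected pool and 194 in donor cells. The donor cells stood above all pools, and the log2 change was -2.17 ± 0.52 (SE, adjusted p = 0.00222). TUBGCP3 gave signals of 1220.0 and 1397 in anti-DJ1 pools, 1271 and 1357 in IgG pools, 1348 in the non-injected pool and 1223 in donor cells, which are nearly level across all arrays, and its log2 change of 0.06 ± 0.15 (SE, adjusted p = 0.725) did not pass the test, against 0.70 with a common 75th percentile. Its second probe set gave -0.71 ± 0.51 (SE, adjusted p = 0.229).

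Among the kinesins, 6 of 8 were higher and 2 lower in the embryos, where 36.4% and 36.5% of all probe sets were. KIF5C, a heavy chain of conventional kinesin known mainly from neurons, gave signals of 584 and 433 in anti-DJ1 pools, 558 and 546 in IgG pools, 449.5 in the non-injected pool and 47.7 in donor cells. The pools lay close together and far above the donor cells, with a log2 change of 3.35 ± 0.23 (SE, adjusted p = 4.07e-08). KIF5B, the widely expressed heavy chain of the same motor, went the other way: it gave signals of 424 and 394 in anti-DJ1 pools, 397 and 54.5 in IgG pools, 323 in the non-injected pool and 1102 in donor cells. Its log2 change was -1.53 ± 0.50 (SE, adjusted p = 0.0153), or -0.90 (adjusted p = 0.0911) with a common 75th percentile, and the IgG pool of trial 2 stood far below the other pools. KIF3A, a motor of kinesin-2 that carries cargo in cilia and cytoplasm, gave signals of 1116 and 900.1 in anti-DJ1 pools, 1129 and 1083 in IgG pools, 751 in the non-injected pool and 192 in donor cells, with a log2 change of 2.33 ± 0.18 (SE, adjusted p = 1.36e-07). KIFAP3, the protein that links kinesin-2 to cargo, was lower in embryos, with signals of 752 and 879 in anti-DJ1 pools, 859 and 737 in IgG pools, 832 in the non-injected pool and 5915 in donor cells and a log2 change of -2.86 ± 0.17 (SE, adjusted p = 1.63e-08). The motor subunit and its adaptor thus lay on opposite sides, each in all 5 pools.

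Of the kinesins of division, KIFC1, a minus-end motor that focuses spindle poles, gave signals of 70.3 and 67.7 in anti-DJ1 pools, 58.4 and 116 in IgG pools, 88.4 in the non-injected pool and 4.37 in donor cells. Its donor signal lay within the Tag controls, so the embryos were at least 2.12-fold higher, and the fitted log2 change was 3.09 ± 0.56 (SE, adjusted p = 0.000282). KIF20A, which acts at the midzone in cytokinesis, gave signals of 125 and 138 in anti-DJ1 pools, 89.8 and 140.1 in IgG pools, 103 in the non-injected pool and 10.6 in donor cells. Here too the donor signal lay within the Tag controls, the embryos were at least 3.14-fold higher, and the fitted log2 change was 2.85 ± 0.42 (SE, adjusted p = 4.95e-05). KIF2A, which takes microtubule ends apart, gave signals of 2739 and 2732 in anti-DJ1 pools, 2709.6 and 2655 in IgG pools, 2516 in the non-injected pool and 871 in donor cells. The 5 pools differed little, all lay above the donor cells, and the log2 change was 1.60 ± 0.14 (SE, adjusted p = 4.18e-07). KIF21A, a motor that slows microtubule growth at the cell cortex, gave signals of 246 and 108 in anti-DJ1 pools, 267 and 155 in IgG pools, 339 in the non-injected pool and 169 in donor cells, with a log2 change of 0.72 ± 0.27 (SE, adjusted p = 0.0300). Both trial 2 pools were below the donor cells and all trial 1 pools above them, and against the trial 2 pools alone the change was -0.37.

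Cytoplasmic dynein, the main motor toward microtubule minus ends, had 4 of 5 chains higher and its heavy chain lower in the embryos. The shares over all probe sets were 36.4% higher and 36.5% lower. DYNC1I1, an intermediate chain that binds cargo and dynactin, gave signals of 11639 and 8278 in anti-DJ1 pools, 12314 and 7579 in IgG pools, 14419.7 in the non-injected pool and 60.7 in donor cells. Every pool lay far above the donor cells, and the log2 change of 7.61 ± 0.13 (SE, adjusted p = 2.43e-13) was the largest among the 32 genes. DYNC1I2, the other intermediate chain, gave signals of 15016 and 11241 in anti-DJ1 pools, 15449 and 12131 in IgG pools, 14968 in the non-injected pool and 7024 in donor cells, with a log2 change of 1.11 ± 0.11 (SE, adjusted p = 1.63e-06). DYNC1LI2, a light intermediate chain, gave signals of 1883 and 1743 in anti-DJ1 pools, 1221 and 2181 in IgG pools, 1391 in the non-injected pool and 289 in donor cells, a log2 change of 2.33 ± 0.22 (SE, adjusted p = 1.06e-06). DYNC2LI1, the light intermediate chain of the dynein that runs in cilia, gave signals of 15667 and 12772 in anti-DJ1 pools, 15698 and 13550.2 in IgG pools, 14124 in the non-injected pool and 3174 in donor cells, a log2 change of 2.25 ± 0.11 (SE, adjusted p = 2.44e-09). All pools were above the donor cells for these 4 genes. DYNC1H1, the heavy chain that holds the motor itself, gave signals of 79.4 and 115 in anti-DJ1 pools, 85.0 and 113 in IgG pools, 83.5 in the non-injected pool and 747 in donor cells. All pools were below the donor cells, and the log2 change was -3.11 ± 0.31 (SE, adjusted p = 1.82e-06).

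The 4 dynein light chains, small dimers bound to the intermediate chains, were split evenly, as were all probe sets, with 36.4% higher and 36.5% lower. DYNLL2 gave signals of 18036 and 12031 in anti-DJ1 pools, 19521 and 14720.5 in IgG pools, 29402 in the non-injected pool and 2309 in donor cells, above the donor cells in every pool, with a log2 change of 3.24 ± 0.11 (SE, adjusted p = 1.08e-10). DYNLT1 gave signals of 8801 and 8006 in anti-DJ1 pools, 7977 and 9218 in IgG pools, 11968 in the non-injected pool and 1232 in donor cells, also above in every pool, with a log2 change of 2.93 ± 0.13 (SE, adjusted p = 9.91e-10). The other pair was lower. DYNLRB1, of the roadblock family, gave signals of 44.7 and 108 in anti-DJ1 pools, 58.6 and 115 in IgG pools, 92.7 in the non-injected pool and 2147 in donor cells, below the donor cells in every pool, with a log2 change of -5.00 ± 0.31 (SE, adjusted p = 1.93e-08). DYNLT3, the close relative of DYNLT1, gave signals of 164 and 158 in anti-DJ1 pools, 156 and 127 in IgG pools, 207 in the non-injected pool and 582 in donor cells, with a log2 change of -1.72 ± 0.27 (SE, adjusted p = 8.25e-05).

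CENPO, CENPI and CENPH, of the constitutive network that sits on the centromere, were higher in embryos. CENPO gave signals of 6298 and 7585 in anti-DJ1 pools, 7215 and 8367 in IgG pools, 6718 in the non-injected pool and 62.5 in donor cells, with a log2 change of 6.65 ± 0.13 (SE, adjusted p = 7.69e-13). CENPI gave signals of 4739 and 3721 in anti-DJ1 pools, 4865 and 3292 in IgG pools, 5024 in the non-injected pool and 182 in donor cells, with a log2 change of 4.71 ± 0.14 (SE, adjusted p = 2.62e-11). CENPH gave signals of 2817 and 2452 in anti-DJ1 pools, 2626 and 2655 in IgG pools, 3156 in the non-injected pool and 269 in donor cells, with a log2 change of 3.39 ± 0.15 (SE, adjusted p = 7.54e-10). For all 3, every pool lay far above the donor cells. CENPB, which binds a repeated box in centromeric DNA, gave signals of 66.9 and 144 in anti-DJ1 pools, 120.1 and 202 in IgG pools, 78.4 in the non-injected pool and 194 in donor cells. It was called lower, at -1.13 ± 0.33 (SE, adjusted p = 0.00805), but the IgG pool of trial 2 lay above the donor cells, and with the trial 2 pools alone the change was -0.18 (adjusted p = 0.607). Quantile normalization (-0.41) and the common percentile (-0.52) also ended this call. CENPF, a large protein of the outer kinetochore, gave signals of 482 and 531 in anti-DJ1 pools, 452 and 578 in IgG pools, 503 in the non-injected pool and 379 in donor cells, and its change of 0.33 ± 0.20 (SE, adjusted p = 0.149) did not pass the test, against 0.98 with quantile normalization and 0.96 with the common percentile, which did. CENPT, of the same network as CENPO, was too dim for the test (log2 change 0.65, adjusted p = 0.491, with all probe sets tested). It gave signals of 8.01 and 99.0 in anti-DJ1 pools, 14.7 and 116 in IgG pools, 24.4 in the non-injected pool and 7.61 in donor cells, within the Tag controls in trial 1 pools and donor cells and above them in both trial 2 pools.

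NDC80, the kinetochore protein that grips the microtubule, gave signals of 3118 and 3526 in anti-DJ1 pools, 2767 and 3381 in IgG pools, 2962 in the non-injected pool and 85.8 in donor cells. The pools lay close together and all far above the donor cells, with a log2 change of 5.03 ± 0.15 (SE, adjusted p = 2.12e-11). SPC25, another subunit of the same complex, gave signals of 43.6 and 43.7 in anti-DJ1 pools, 20.6 and 44.1 in IgG pools, 21.1 in the non-injected pool and 13.7 in donor cells, above the Tag controls only in the anti-DJ1 pools and too dim for the test.

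All 5 centrosomal CEP genes were higher in the embryos, without overlap. Of all probe sets, 36.4% were called higher and 40.9% were higher without overlap. CEP57, a protein around the centriole, gave signals of 4965 and 2643 in anti-DJ1 pools, 4409.9 and 3368 in IgG pools, 4011 in the non-injected pool and 123 in donor cells, with a log2 change of 5.13 ± 0.16 (SE, adjusted p = 4.95e-11). CEP85 gave signals of 3389.5 and 4872 in anti-DJ1 pools, 3561 and 4219 in IgG pools, 3842 in the non-injected pool and 290.0 in donor cells, with a log2 change of 3.61 ± 0.14 (SE, adjusted p = 3.20e-10). CEP55, best known for the final cut of cytokinesis, gave signals of 1064 and 529.7 in anti-DJ1 pools, 979 and 634 in IgG pools, 654 in the non-injected pool and 72.2 in donor cells, with a log2 change of 3.53 ± 0.20 (SE, adjusted p = 9.23e-09). All pools of these 3 lay far above the donor cells. CEP192, a scaffold that recruits mitotic kinases to the centrosome, gave signals of 1894 and 1682 in anti-DJ1 pools, 1751 and 1447 in IgG pools, 1003 in the non-injected pool and 302 in donor cells, with a log2 change of 2.29 ± 0.16 (SE, adjusted p = 4.94e-08). CEP295, needed for a new centriole to become a centrosome, gave signals of 719 and 781 in anti-DJ1 pools, 480.5 and 775 in IgG pools, 389.6 in the non-injected pool and 197 in donor cells, with a log2 change of 1.36 ± 0.22 (SE, adjusted p = 0.000100).

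Between anti-DJ1 and IgG embryos, none of the 32 genes passed the test (limma), nor did any of the 14399 probe sets tested (0% called). At an unadjusted p under 0.05 there were 2 of the 32 genes, KIF5B and CENPB, and 5.82% of all probe sets. Adjusted p-values of the 32 genes were 0.816 to 0.995. The median log2 change was -0.02, with 13 of 32 genes above 0, against 49.1% of all probe sets. The sign was the same in both trials for 14 of the 32 genes, or 43.8%, against 51.3% of all probe sets. The 95% confidence interval of a gene, not adjusted for the number of tests, reached, in the median, 1.26-fold to either side. Changes smaller than that were not resolved, and larger ones could also fail the test. KIF5B, 2.68-fold higher, and CENPB, 1.56-fold lower, did not pass it. Signals of the groups did not overlap for 2 genes, KIF2A and DYNLT3, both higher in anti-DJ1 embryos, where 8.7% of all probe sets did so in that direction, and for 0 genes lower, against 8.6% of all probe sets.

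The 4 genes with the smallest unadjusted p were KIF5B, CENPB, DYNLL2 and CEP295. KIF5B signal was 424 and 394 in anti-DJ1 pools and 397 and 54.5 in IgG pools, or 409 ± 21.3 and 226 ± 242 (SD, n = 2 each). Only the IgG pool of trial 2 stood apart, and the log2 change was 1.42 ± 0.43 (SE, adjusted p = 0.816), made of 0.10 in trial 1 and 2.75 in trial 2. CENPB was at 66.9 and 144 in anti-DJ1 pools and at 120.1 and 202 in IgG pools, lower with the antibody in both trials, with a log2 change of -0.64 ± 0.29 (SE, adjusted p = 0.853). DYNLL2 was at 18036 and 12031 in anti-DJ1 pools and at 19521 and 14720.5 in IgG pools. It too was lower in both trials, with a log2 change of -0.20 ± 0.10 (SE, adjusted p = 0.875), while its second probe set gave 0.14 ± 0.17 (SE, adjusted p = 0.966). CEP295 was at 719 and 781 in anti-DJ1 pools and at 480.5 and 775 in IgG pools, higher in trial 1 and level in trial 2, with a log2 change of 0.29 ± 0.19 (SE, adjusted p = 0.920).

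Several genes had opposite signs in the trials. The log2 change was 0.19 in trial 1 and -0.84 in trial 2 for TUBB, 0.25 and -0.74 for KIFC1, 0.62 and -0.32 for DYNC1LI2, and 0.29 and -0.26 for TUBA1B. No gene was 2-fold apart in trial 1, where 6.92% of all probe sets were, and KIF5B alone was in trial 2, where 3.41% were.

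**Figure D3:**
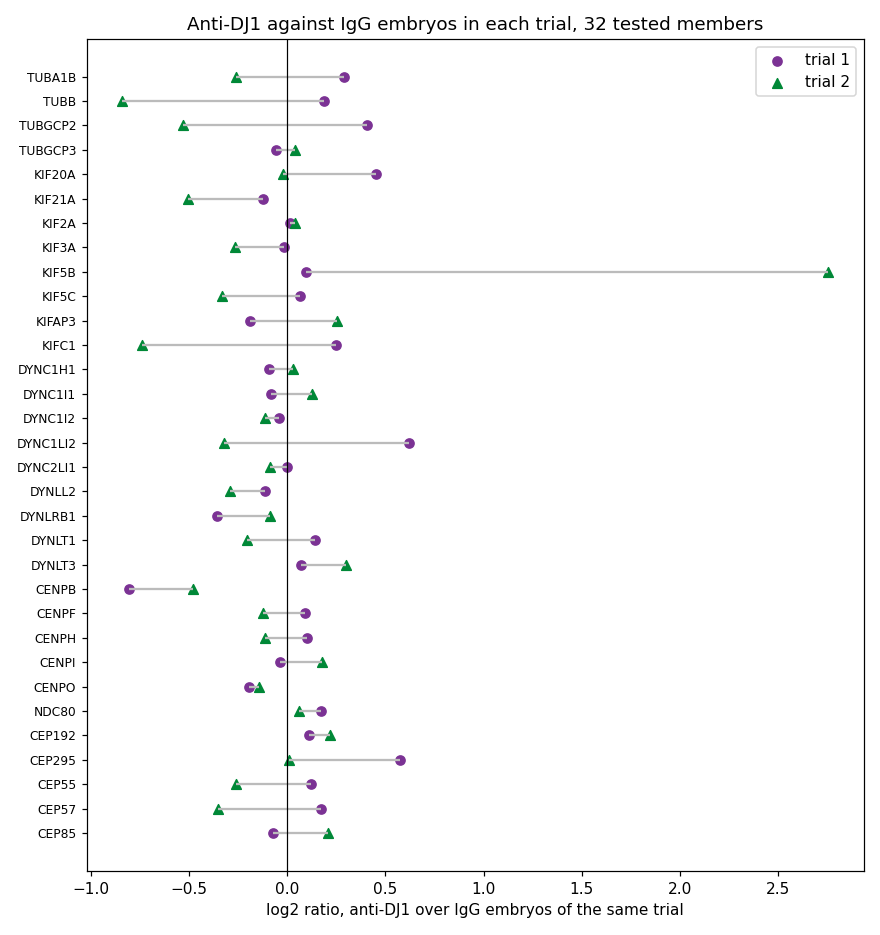
Log2 change of the 32 tested genes in anti-DJ1 minus IgG embryos, on the horizontal axis, with 1 gene per row. Each gene has a circle for trial 1 and a triangle for trial 2, joined by a line. Points lie around 0, apart from KIF5B in trial 2, at 2.75, beside 0.10 in trial 1.

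Both injected groups were set against the single non-injected pool, which they share, so the comparisons are not independent. It was assumed to vary like the replicated pools. In anti-DJ1 embryos 2 of the 32 genes passed the test, CEP192 higher and DYNLL2 lower, where 1.92% of all probe sets were called, 1.26% higher and 0.653% lower. In IgG embryos none of the 32 passed (limma), where 1.26% of all probe sets were called, 0.917% higher and 0.347% lower. An unadjusted p under 0.05 was found for 7 of the 32 genes in anti-DJ1 embryos, where 18.5% of all probe sets had one, and for 5 in IgG embryos, where 17.3% did. The EF1A 3′ to 5′ ratio was 24.2 and 8.20 in the anti-DJ1 pools, 23.9 and 9.34 in the IgG pools and 30.0 in the non-injected pool. For the actin control it was 265 and 45.0 in the anti-DJ1 pools, 258 and 68.4 in the IgG pools and 665 in the non-injected pool, which was the highest on both. The part of this in the comparisons was not tested. Counted by signals without overlap, 10 genes were higher and 9 lower in anti-DJ1 embryos (36.6% and 28.2% of all probe sets) and 9 higher and 7 lower in IgG embryos (35.3% and 27.3%). With the trial as a term, each change is set to the level of trial 1, the trial of the non-injected pool.

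CEP192 was at 1894 and 1682 in anti-DJ1 pools, at 1751 and 1447 in IgG pools and at 1003 in the non-injected pool. All injected pools lay above it, with a log2 change of 0.94 ± 0.18 (SE, adjusted p = 0.0282) in anti-DJ1 and 0.77 ± 0.18 (SE, adjusted p = 0.0629) in IgG embryos. DYNLL2 was at 18036 and 12031 in anti-DJ1 pools, at 19521 and 14720.5 in IgG pools and at 29402 in the non-injected pool. All injected pools lay below it, with a log2 change of -0.75 ± 0.13 (SE, adjusted p = 0.0223) in anti-DJ1 and -0.55 ± 0.13 (SE, adjusted p = 0.0652) in IgG embryos. The second probe set of DYNLL2 gave -0.09 ± 0.23 (SE, adjusted p = 0.882) in anti-DJ1 embryos, so the call rests on 1 of its 2 probe sets. Both calls were lost without the trial as a block, without the trend in the variance and with any 1 array of the replicated groups left out, when 0 or 1 probe sets of the whole array passed. The DYNLL2 call was also lost with all probe sets tested (adjusted p = 0.0846) and with quantile normalization, where the change was -0.36 (adjusted p = 0.138).

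Of the genes that did not pass the test, those with an unadjusted p under 0.05 in either comparison were DYNLT1, CEP295, CEP55, DYNLRB1 and KIF3A. DYNLT1 was at 8801 and 8006 in anti-DJ1 pools, at 7977 and 9218 in IgG pools and at 11968 in the non-injected pool, with log2 changes of -0.53 ± 0.15 (SE, adjusted p = 0.0911) and -0.50 ± 0.15 (SE, adjusted p = 0.116). KIF3A was at 1116 and 900.1, at 1129 and 1083, and at 751 in the same order, with log2 changes of 0.51 ± 0.20 (SE, adjusted p = 0.209) and 0.65 ± 0.20 (SE, adjusted p = 0.131). CEP55 was at 1064 and 529.7, at 979 and 634, and at 654, with log2 changes of 0.60 ± 0.23 (SE, adjusted p = 0.189) and 0.67 ± 0.23 (SE, adjusted p = 0.162). The trials differ for CEP55: its trial 1 pools lay above the non-injected pool, and its trial 2 pools below. CEP295 was at 719 and 781 in anti-DJ1 pools, at 480.5 and 775 in IgG pools and at 389.6 in the non-injected pool, with log2 changes of 0.73 ± 0.25 (SE, adjusted p = 0.140) and 0.44 ± 0.25 (SE, adjusted p = 0.397). DYNLRB1 was at 44.7 and 108 in anti-DJ1 pools, at 58.6 and 115 in IgG pools and at 92.7 in the non-injected pool, with log2 changes of -0.91 ± 0.36 (SE, adjusted p = 0.195) and -0.69 ± 0.36 (SE, adjusted p = 0.353). All CEP295 signals of injected pools lay above the non-injected pool, while those of DYNLRB1 lay below it in trial 1 and above it in trial 2.

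**Figure D4:**
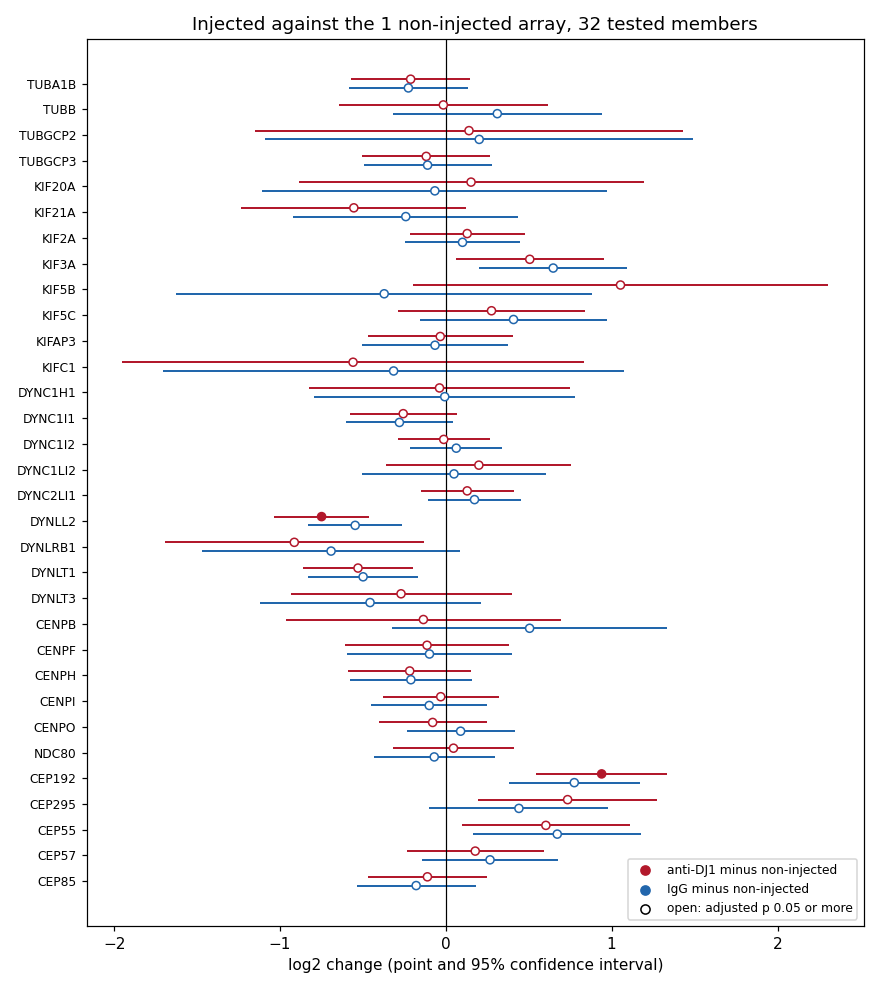
Log2 change of the 32 tested genes in anti-DJ1 embryos and in IgG embryos, each minus the 1 non-injected pool, with 95% confidence intervals. CEP192 at 0.94 and 0.77 and DYNLL2 at -0.75 and -0.55 lie farthest from 0 relative to their intervals.

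The repeat pools of trial 2 were also set against those of trial 1. In trial 2 against trial 1, over anti-DJ1 and IgG embryos, 12 of the 32 genes passed the test, 4 higher and 8 lower, where 32.3% of all probe sets were called, 18.9% higher and 13.4% lower, so the share among these genes is near that of the array. Signals did not overlap for 12 genes that were higher and 12 that were lower, where 40.5% and 26.1% of all probe sets did so. The trials were separate pools prepared as a repeat, so this is a difference between pools and not an effect of a treatment. The EF1A 3′ to 5′ ratio was 8.20 and 9.34 in trial 2 and 24.2 and 23.9 in trial 1, and its part in the differences was not tested.

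Higher in trial 2 were DYNLRB1, CENPB, TUBB and CEP85. DYNLRB1 was at 108 and 115 in trial 2 and at 44.7 and 58.6 in trial 1, with no overlap and a log2 change of 1.06 ± 0.27 (SE, adjusted p = 0.0108). The changes were 0.89 ± 0.29 (SE, adjusted p = 0.0324) for CENPB, 0.86 ± 0.22 (SE, adjusted p = 0.0103) for TUBB and 0.38 ± 0.12 (SE, adjusted p = 0.0333) for CEP85. Lower in trial 2 were KIF5B, KIF21A, CEP55, CEP57, DYNC1I1, DYNLL2, CENPI and DYNC1I2. KIF21A was at 108 and 155 in trial 2 and at 246 and 267 in trial 1, with a log2 change of -0.96 ± 0.23 (SE, adjusted p = 0.00845). CEP55 was at 529.7 and 634 in trial 2 and at 1064 and 979 in trial 1, with a log2 change of -0.81 ± 0.18 (SE, adjusted p = 0.00439). DYNC1I1 was at 8278 and 7579 in trial 2 and at 11639 and 12314 in trial 1, with a log2 change of -0.60 ± 0.11 (SE, adjusted p = 0.00190). For these 3 genes the trials did not overlap. KIF5B changed by -1.43 ± 0.43 (SE, adjusted p = 0.0247), with the 1 low IgG pool among the trial 2 arrays, and the other 4 by -0.65 (CEP57), -0.50 (DYNLL2), -0.46 (CENPI) and -0.38 (DYNC1I2, which turned to 0.048 under quantile normalization). TUBB4B and CENPT, left out of the tests by their low mean, were at least 2.79-fold and 3.56-fold higher in trial 2, where their signals were 109 and 62.9, and 99.0 and 116.

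All probe sets tested shifted by a median of 0.14 between the trials, by -0.0040 with quantile normalization and by -0.095 with a common 75th percentile. Under quantile normalization 7 of the 32 genes were higher and 6 lower in trial 2, with 1957 and 2186 of all probe sets, and under the common percentile 2 were higher and 11 lower, with 1657 and 3203. As deposited, the counts over all probe sets were 2728 and 1923. Quantile normalization ended the calls of DYNLL2, DYNC1I2 and CENPB and added TUBA1B (0.85), CENPO (0.51), DYNLT1 (0.32) and DYNC2LI1 (0.26) as higher in trial 2. The common percentile ended the calls of CEP85 and CENPB and added DYNC2LI1 (-0.50), CEP192 (-0.47) and KIF3A (-0.43) as lower. DYNC2LI1, at -0.25 as deposited, was thus called in opposite directions by the scalings, and TUBA1B, at 0.15 as deposited, turned to -0.096 under the common percentile. Without the trend in the variance no probe set passed between the trials.

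Further probe sets of the same gene did not always follow the one used. DYNLL2, read by its second probe set, was at 439.8 and 1217 in anti-DJ1 pools, 344 and 1275 in IgG pools, 435 in the non-injected pool and 277 in donor cells. By this probe set trial 2 was higher by 1.67 ± 0.17 (SE, adjusted p = 5.92e-05), against -0.50 ± 0.10 (SE, adjusted p = 0.00266) by the probe set used, and embryos were higher than donor cells by 0.53 and not by 3.24. For DYNC2LI1 the second probe set gave 1.07 ± 0.14 (SE, adjusted p = 0.000179) between the trials, where the one used gave -0.25 ± 0.10 (SE, adjusted p = 0.0661). KIF3A has 4 probe sets. The one with the lowest mean was at 694 and 458 in anti-DJ1 pools, 893 and 593 in IgG pools, 247 in the non-injected pool and 239 in donor cells, and it passed the test in both anti-DJ1 embryos, at 1.47 ± 0.23 (SE, adjusted p = 0.0121), and IgG embryos, at 1.84 ± 0.23 (SE, adjusted p = 0.00467), against the non-injected pool. Between the trials the probe set used was not called, at -0.18 ± 0.15 (SE, adjusted p = 0.401), while the other 3 were called lower in trial 2, at -0.81, -0.87 and -0.59. The calls against the non-injected pool, like all such calls, were lost without the trial as a block. All 4 were higher in embryos than in donor cells, by 2.33, 2.71, 1.62 and 1.15. For CEP85 the changes against the donor cells were 3.61 and 2.92, for DYNC2LI1 2.25 and 1.95. The other probe sets of DYNC1I2, DYNLT3 and TUBGCP2 were too dim for the test. Where the probes lie along the transcripts was not analysed here.

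**Figure D5:**
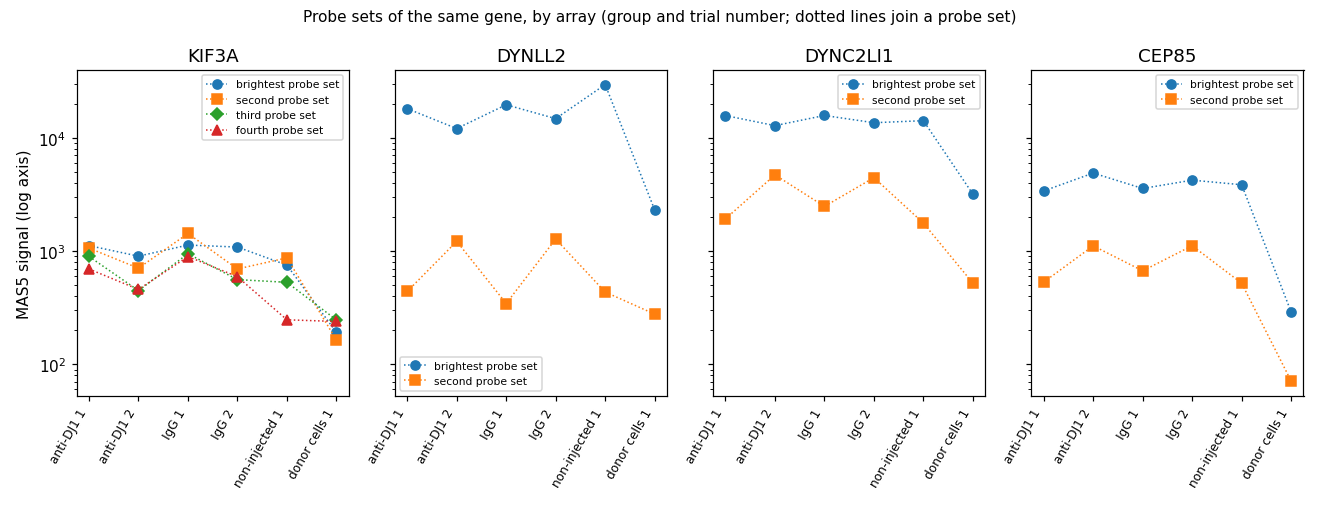
Signals by array, on a log axis, of the probe sets of KIF3A, DYNLL2, DYNC2LI1 and CEP85, with 1 panel per gene. Between the trials, the tested log2 change of DYNLL2 was -0.50 by the probe set used and 1.67 by the other.

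Other genes of the same machinery were taken from 5 lists of textbook members, of which 72 of 143 symbols were on the array and 67 entered the tests. None passed the test (limma) in anti-DJ1 against IgG embryos or in either injected group against the non-injected pool. At an unadjusted p under 0.05 there were 3 of 67 in anti-DJ1 against IgG embryos, and 11 in anti-DJ1 and 8 in IgG embryos against the non-injected pool, where 5.82%, 18.5% and 17.3% of all probe sets had one. Against the donor cells, 30 of the 67 were higher, 24 lower and 13 did not pass, where 36.4% of all probe sets were called higher and 36.5% lower.

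In the list of the spindle checkpoint and kinetochore, 10 of 14 were higher in embryos and 1, BUB3, lower, at -0.59. Among them were PTTG1 (securin, which holds separase in check) at 7.50, AURKA, a kinase of spindle poles, at 6.11 and CDC20, which activates the anaphase-promoting complex, at 6.07 on the log2 scale. CDC20 lay within the Tag controls in the donor cells, and the embryos were at least 24.2-fold higher. In the list of microtubule-associated proteins, 12 of 23 were higher and 7 lower. TACC3, which binds the spindle with clathrin, was higher by 8.02, or at least 128-fold, as its donor signal lay within the Tag controls. The list of centrosome proteins held only 3 tested genes, NEK2 and MZT1 higher by 4.65 and 1.17 and CETN3 lower, at -0.47. With the common 75th percentile, 0 genes of the checkpoint and centrosome lists were lower, and 14 of the microtubule-associated proteins were higher and 3 lower.

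In the tubulin folding and dynactin lists more genes were called lower than higher, where 36.4% of all probe sets were called higher and 36.5% lower. Of 15 tubulin folding genes, 4 were higher and 8 lower, CCT4, a subunit of the chaperonin that folds tubulin and actin, by the most at -5.42. Of 12 genes of dynactin and dynein regulation, 2 were higher, NDEL1 at 1.93 and DCTN4 at 0.42, and 7 lower. DCTN2, the dynactin subunit known as dynamitin, was at -4.60, and the capping protein CAPZA2, shared by dynactin and actin filaments, was at -5.42. TACC2, a relative of TACC3, was lower too, at -4.16. With the common percentile, the folding genes were 5 higher and 7 lower and the dynactin list 2 and 5, and with quantile normalization 3 and 8, and 2 and 5. Between the trials, 21 of the 67 were higher and 13 lower in trial 2, where 18.9% of all probe sets were called higher and 13.4% lower.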

How the data were processed

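The deposited table holds probe set intensities on a linear scale, per the labels, with 1 column per sample. The submitters' processing notes name MAS5, with no version or scaling target in the sources used here. Of 24123 probe sets, 124 array controls were left out. Names come from the platform annotation, which can be old and gave a single symbol to 10069 probe sets, several to 198 and none to 13732. All 36 genes matched RefSeq by gene ID.

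Intensities were set to log2(signal + 4.57), the 10th percentile of all signals, a scale that understates changes of dim probe sets. The 14399 probe sets in the upper 60% by mean (mean signal above 39.6) were tested with limma 3.58.1 in R 4.3.3 (lmFit, eBayes with a mean-variance trend), with group and trial as terms on all 6 arrays, two-sided, with Benjamini-Hochberg adjustment over all 14399. The residual degrees of freedom were 1, and moderation added 10.7. A probe set low in one group passed this filter only through the other, as for members high in embryos and near background in donor cells. The script was tested on simulated data. Precision is limited by how few arrays there are, and single arrays have no spread of their own.

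Trial was a block because the design text gives each trial its own IgG control. As a check of this pairing, same-trial anti-DJ1 and IgG arrays deviated together from their groups (r = 0.588 over the tested probe sets, as a description). A bound ("at least") sets signals within the Tag controls to the highest Tag control.

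The genes, the 5 pathway lists and the marker lists were chosen with earlier results of these data known. Named in full were genes called within embryos, up to 6 per role and direction called against the donor cells with all embryo arrays on one side, the 4 with the smallest p in anti-DJ1 against IgG embryos, and, from the pathway lists, the 4 largest changes in each direction, with genes behind counts of up to 3 added after their values were seen. Alternatives were other pseudocounts, filters and scalings, no block, no trend, single arrays left out and, added after seeing the data, each trial's embryos alone.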

Additional observations from a re-analysis of the deposited data

How the results depend on the processing

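Against the donor cells, 26 to 31 genes were called under all alternatives run, beside 30 of 32, but the number tested varied. With no filter, 31 of 36 were called, 22 higher and 9 lower, with TUBA1A added as lower. In the upper 40% of probe sets, 27 of 29 were called. Among the 32 genes the trial 2 embryo arrays alone turned the sign of KIF21A, to -0.37, beside 0.72. KIF5B lost its call with a common 75th percentile, at -0.90 (adjusted p = 0.0911), without the block and without the trend, and TUBA1B and DYNC1I2 with single arrays left out. KIF21A and CENPB lost theirs with the embryo arrays of either trial alone. The comparisons within embryos depend on the processing. For anti-DJ1 against IgG embryos, 1 probe set was called with the pseudocount at the 25th percentile, 1 with quantile normalization, 1 with a common 75th percentile and 43 when only the upper 40% of probe sets were tested, among them 1 of the 32 genes, KIF5B (adjusted p = 0.000331). Leaving out single arrays gave 0 to 0 probe sets. The call of KIF5B rests on the IgG pool of trial 2.

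For IgG against non-injected embryos, 182 probe sets were called, against 447 with the larger pseudocount, 48 with no filter, 726 in the upper 40%, 312 with the common percentile and 0 with single arrays left out. Among the 32 genes the counts were 2 with the larger pseudocount and 2 with the common percentile (CEP192 and DYNLL2 in both) and 4 in the upper 40% (these and KIF3A and DYNLT1). For anti-DJ1 against non-injected embryos, 276 probe sets were called, against 589, 71, 878 and 466 in the same settings, and 0 to 1 with single arrays left out. Among the 32 genes, beside 2, the counts were 5 in the upper 40% (also KIF5B, DYNLT1 and CEP295), 1 with no filter and 1 with quantile normalization (CEP192 in both), and 0 with single arrays left out. Without the trial as a block, both comparisons with the non-injected pool called 0 probe sets and 0 of the 32 genes, as they did without the trend. Between the trials, 0 probe sets and 0 genes were called without the trend, beside 4651 and 12. The cause of these differences was not tested. Fits with an array left out have no block, since it would leave no residual degree of freedom, and their trials are unbalanced.

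Between the trials, quantile normalization turned the signs of DYNC1I2 (0.048), DYNC2LI1 (0.26, adjusted p = 0.0478) and KIFAP3 (-0.16), and a common 75th percentile those of TUBA1B, TUBGCP3, KIFAP3, DYNLT1, CENPO and NDC80 (-0.24 to -0.0058, none called). With single arrays left out, anti-DJ1 against IgG embryos gave -0.49 to 0.089 for DYNLL2, above 0 without the anti-DJ1 pool of trial 2 and at 0.00099 without the IgG pool of trial 1, and -0.049 to 0.64 for CEP295, below 0 without the IgG pool of trial 1. Neither of these genes had been called in that comparison.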
